A study of Mus musculus with 12 samples.

Results

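The interaction between the 5xFAD transgenes and the p75NTRko label asks whether a mouse carrying both differs from WT by the sum of what each genotype shows alone. For each gene it was computed as (5xFAD/p75NTRko minus 5xFAD) minus (p75NTRko minus WT) on the log2 scale, from all 12 hippocampal libraries of the series, 3 for each of 4 genotypes. A value of 0 means that the log2 differences add. A value of 1 means that the double-genotype level is 2 times the additive level, and -1 that it is 50% of it. Of 23210 autosomal genes in the count table, 12569 had enough counts to be tested.

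All mice were 2 months old, and all, WT included, had received BrdU, a label of dividing cells, before the hippocampus was taken. The groups were WT, 5xFAD (mutant human amyloid precursor protein and presenilin 1 driven by the neuronal Thy1 promoter), p75NTRko (labelled as lacking Ngfr, the gene of the p75 neurotrophin receptor), and 5xFAD/p75NTRko. The labels name neither the receptor allele, nor the sex of the animals, nor a strain. They call the 3 libraries of a genotype biological replicates without naming animals or litters, so p-values measure the spread between these samples. Libraries were 3′ tag libraries, which count transcript ends.

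The p75 receptor binds neurotrophins and their precursors on neurons and glia and signals through partners such as sortilin, and amyloid-β peptide has also been described as a ligand. The 5xFAD transgenes release amyloid-β early in life, with deposits, gliosis and altered neurogenesis described in the hippocampus. A genetic interaction, in which 2 changes together differ from their sum, is a standard way to ask whether 2 pathways meet.

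Some properties of the libraries touch every result below. Ngfr was at 5.95 to 10.5 CPM (counts scaled to a common library size) in the 6 receptor-labelled libraries and at 0.166 to 1.95 CPM in the other 6, the lowest being 1 count, so the level of its transcript end went against the label and the groups are called p75NTRko-labelled. A tag at the transcript end does not show whether an exon is deleted elsewhere in the gene. Thy1, whose promoter drives the transgenes, was at 1596 to 4019 CPM in the 6 transgene carriers and 688 to 940 CPM in the other 6. Xist, expressed from the inactive X chromosome, was at 360 to 439 CPM in all WT, all double-genotype and 1 p75NTRko-labelled library (replicate 1), and at 1.53 to 3.58 CPM in all 5xFAD and the other p75NTRko-labelled libraries. Transcripts from the Y chromosome summed to 156 to 201 CPM in the Xist-low libraries and to 0.332 to 1.36 CPM in the Xist-high ones. By these levels the Xist-high libraries read as female and the Xist-low ones as male, although the labels give no sex. The contrast thus sets 6 Xist-high libraries against 6 of which 5 are Xist-low, which is close to female minus male. Apart from p75NTRko-labelled replicate 1, the interaction cannot be told apart from Xist class, and so from sex. Within a genotype, Xist class varies only among the p75NTRko-labelled libraries. Wherever Xist class is a term below, its effect is therefore estimated from replicate 1 alone against the other p75NTRko-labelled libraries, with loss of precision. A lower count of genes under a given p in that fit cannot tell lost precision from a changed interaction.

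Only 1 autosomal gene of 12569, or 0.00796%, passed an adjusted p of 0.05 in edgeR (quasi-likelihood F test, Benjamini-Hochberg adjustment). This was Adra1b. The 4 genes that passed outside the autosomes were all Y-linked. At an unadjusted p under 0.05, 648 autosomal genes (5.16%) had a positive and 521 (4.15%) a negative interaction, 1169 together, against 628 that a uniform p would give. DESeq2 called 20 autosomal genes, 10 in each direction, Adra1b among them. With autosomal genes alone in the edgeR fit 0 passed (1170 at an unadjusted p under 0.05), with Xist class as a term 1 other gene, Wdfy1, passed (503), and without double-genotype replicate 2 there were 16 positive genes that passed (1527). The median interaction over autosomal genes was 0.00 and the median standard error 0.25 on the log2 scale. The share with an unadjusted p under 0.05 went from 7.25% in genes with a mean of 0.779 to 7.30 CPM to 11.8% in those above 67.2 CPM, while the median standard error went from 0.527 to 0.154. By autosome it lay between 7.44% (chromosome 18) and 11.2% (chromosome 10).

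Most departures took the same form. Of the 648 genes on the positive side, 565 (87.2%) were lower than WT in both single genotypes while the double genotype lay nearer WT than either. Of the 521 on the negative side, 392 (75.2%) were higher than WT in both single genotypes and nearer WT in the double. Only 13 and 29 had their largest difference from WT in the double genotype and in the direction of the interaction. The other 70 and 100 took neither form. Over all autosomal genes tested, 29.1% had the first form, with the single genotypes apart, and 18.4% the second, with the double genotype apart. The form is read from the contrast that gave the p-value, so these shares describe the genes and test nothing.

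**Figure D1:**
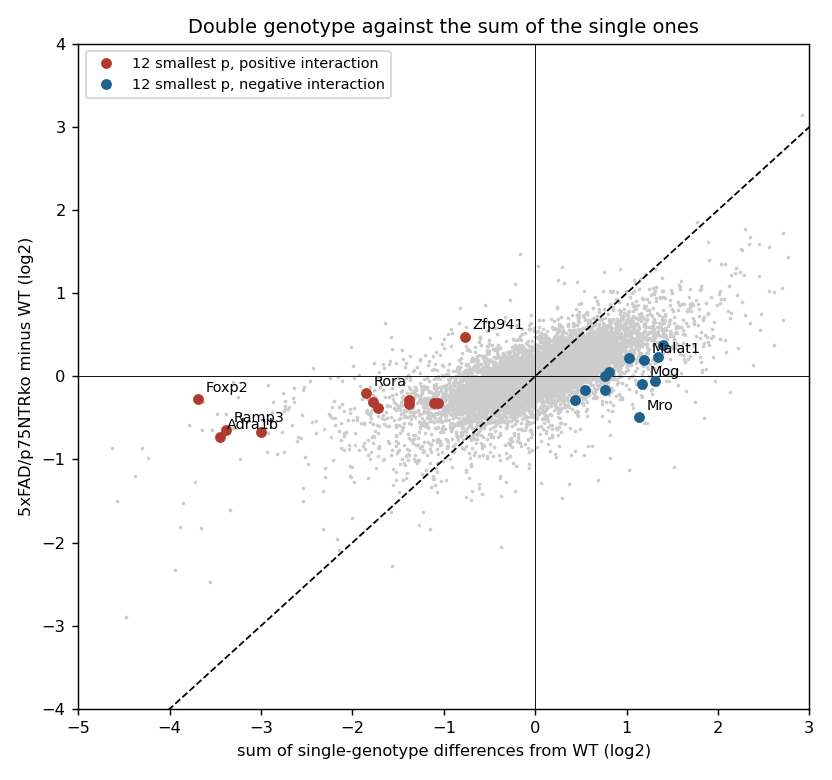
Difference of 5xFAD/p75NTRko-labelled libraries from WT (y axis, log2) against the sum of the differences of 5xFAD and of p75NTRko-labelled libraries from WT (x axis, log2), 1 point per autosomal gene tested. The dashed line is additivity, red and blue points are the 12 genes of each direction with the smallest p among genes of at least 5 mean CPM, and 12 genes lie outside the axes. All red points but Zfp941 lie below 0 on both axes and above the line.

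Adra1b, the alpha-1B adrenergic receptor (chromosome 11, 43774605 to 43901250, GRCm38), was at 74.1, 60.9 and 35.8 CPM in WT replicates 1 to 3. It was at 14.4, 19.5 and 13.3 CPM in 5xFAD and at 22.1, 17.5 and 17.0 CPM in p75NTRko-labelled libraries. In the double genotype it was at 39.1, 19.3 and 44.4 CPM. Every WT library thus lay above every single-genotype library, whereas the double genotype spread from the single-genotype range up into the WT range, with replicate 2 at 19.3 CPM inside the 5xFAD range. If the single differences added, the double genotype would lie at 5.20 CPM, and its mean was 34.3 CPM ± 13.2 (SD, n = 3), which gives a log2 interaction of 2.73 (SE 0.420, adjusted p 0.0307, edgeR).

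That call was lost when only autosomal genes were normalized and adjusted together (adjusted p 0.139 at the same 2.73, Adra1b), and with Xist class as a term (2.14, SE 0.908, adjusted p 0.998). The mean log2 CPM of thalamus and habenula markers as a covariate also ended it (2.36, adjusted p 0.164), as did the striatal score in its place (2.14, adjusted p 0.563), the replicate number as a block (2.7, adjusted p 0.0929), a filter at a mean of 50 counts (2.71, adjusted p 0.0585) and leaving out 10 of the 12 libraries singly, with 2.49 to 2.91. It held without WT replicate 3 (adjusted p 0.00962) and without double-genotype replicate 2 (0.00143). On the linear CPM scale the additive level of Adra1b would be below 0, at -22.4 CPM, and the interaction of 56.7 CPM had an adjusted p of 0.231 in limma. The unadjusted p of Adra1b stayed under 0.05 in each of these fits, at most 0.0345.

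**Figure D2:**
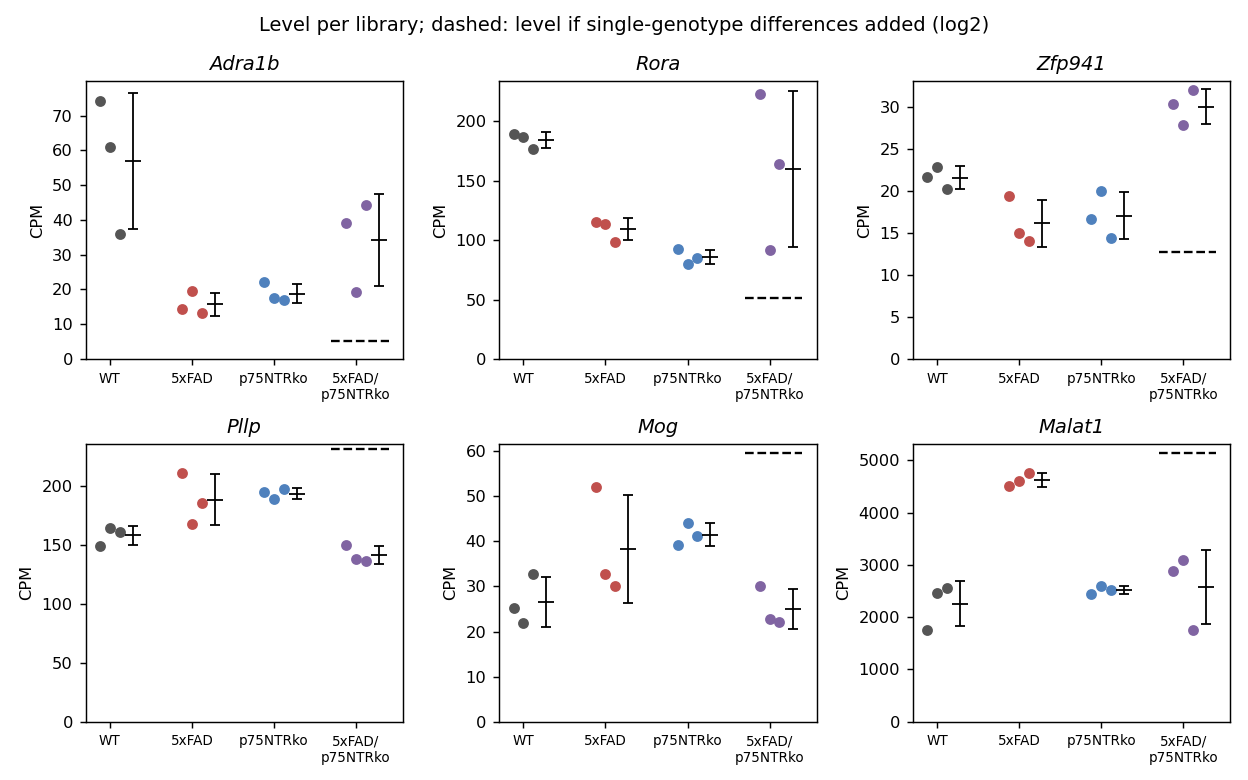
CPM (y axis) of 6 genes in each library of the 4 genotypes (x axis), with the mean and SD of the 3 libraries in black and the level at which single differences would add on the log2 scale as a dashed line. For Adra1b and Rora the double genotype has 1 low library, replicate 2, and for Pllp all its libraries are below those of both single genotypes.

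The other 11 genes with the smallest p on the positive side and at least 5 mean CPM did not pass adjustment in edgeR (adjusted p 0.0981 to 0.305). They span several roles in neurons and glia. Rora (1.65) is a nuclear receptor of the clock and of thalamic and cerebellar neurons. Slc6a9 (1.10) takes up glycine and Kcnj10 (0.79) is the main inward-rectifier potassium channel of astrocytes. Foxp2 (3.42) is a transcription factor of deep cortical and thalamic neurons, Ramp3 (2.74) an accessory protein of calcitonin-family receptors, Hrh1 (2.33) a histamine receptor, Vamp1 (0.74) a vesicle fusion protein and Cntn4 (1.46) a cell adhesion protein of axons. Pdp1 (1.34) activates pyruvate dehydrogenase by dephosphorylation, and Pcp4 (1.05) binds calmodulin.

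In all 12 of these genes, Adra1b included, every WT library lay above every library of both single genotypes. The double genotype overlapped WT in 10, and in 11 its replicate 2 was its library closest to the single genotypes. The genes were chosen by their p in this contrast, in which 0.00796% of autosomal genes passed, so these counts are a description. Rora shows this: 189, 187 and 177 CPM in WT, 116, 114 and 98.7 CPM in 5xFAD, 92.3, 80.2 and 85.3 CPM in p75NTRko-labelled libraries, and 223, 92.0 and 164 CPM in the double. Double-genotype replicate 1 exceeded every WT library, while replicate 2 lay below every 5xFAD library. Against WT, none of the 12 had an adjusted p under 0.428 in the double genotype in edgeR. The single genotypes differed little by the same measure. For 5xFAD against WT 1 of the 12, Adra1b (0.0369), had an adjusted p under 0.05, and for p75NTRko-labelled against WT 0 had. For the double genotype against either single genotype 0 of the 12 had.

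Zfp941, a zinc finger gene (chromosome 7, 140807453 to 140822201), departed in another form and with little spread. It was at 21.7, 22.9 and 20.2 CPM in WT, at 19.4, 15 and 14.1 CPM in 5xFAD and at 16.7, 20.0 and 14.4 CPM in p75NTRko-labelled libraries. The double genotype was at 30.3, 27.9 and 32.0 CPM, above every other library. The interaction of 1.24 (SE 0.220, adjusted p 0.0981) did not pass in edgeR, and passed in DESeq2 (adjusted p 0.00299). It stayed between 1.13 and 1.40 over all alternatives on the log2 scale, covariates and Xist class included, with the largest adjusted p 0.998 under the Xist class term.

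On the negative side the 12 genes with the smallest p did not pass in edgeR either (adjusted p 0.139 to 0.329). Pllp, Mog and Mal are membrane proteins of myelin. Ide degrades insulin and amyloid-β, Golgb1 is a Golgi tether, and Tprkb belongs to the complex that modifies transfer RNA. Bcl11b and Rest are transcription factors of neuronal identity and of its repression, Wnt2 is a secreted Wnt ligand, and Malat1 is a nuclear long noncoding RNA. Prr18 (-0.72) and Mro (-1.63) complete the set.

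Pllp had the smallest p of these, at 149, 165 and 161 CPM in WT, 211, 168 and 186 CPM in 5xFAD, 195, 189 and 197 CPM in p75NTRko-labelled libraries and 150, 138 and 136 CPM in the double. Both single genotypes were above WT in every library, and every double-genotype library was below both. Its double-genotype mean of 142 CPM was 61.3% of the fitted additive level (interaction -0.71, SE 0.133, adjusted p 0.139 in edgeR, 0.00169 in DESeq2). Over the 12 genes, the double genotype lay below every 5xFAD library in 10, below every p75NTRko-labelled library in 7 and below both in 6.

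In 4 of the 12, Ide (chromosome 19, 37268743 to 37334544), Malat1, Golgb1 and Rest, every 5xFAD library was above every other library. Ide was at 27.9, 26.6 and 28.5 CPM in WT, 59.3, 59.0 and 58.1 CPM in 5xFAD, 27.8, 24.8 and 26.9 CPM in p75NTRko-labelled libraries and 36.3, 30.2 and 30.2 CPM in the double. The other 9 libraries lay between 24.8 and 36.3 CPM. The interaction of Ide was -0.80 (SE 0.156, adjusted p 0.172), and from 5xFAD to the double genotype it fell by 0.87 (adjusted p 0.0140) in edgeR. Malat1 was at 1761, 2458 and 2551 CPM in WT, 4511, 4605 and 4759 CPM in 5xFAD, 2435, 2589 and 2520 CPM in p75NTRko-labelled libraries and 2882, 3090 and 1759 CPM in the double. Its interaction was -1.0 (SE 0.246, adjusted p 0.329 in edgeR). Golgb1 was at 29.2 to 31.9 CPM in 5xFAD and 18.5 to 24.1 CPM elsewhere, and Rest at 9.47 to 10.7 CPM in 5xFAD and 4.87 to 7.59 CPM elsewhere.

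**Figure D3:**
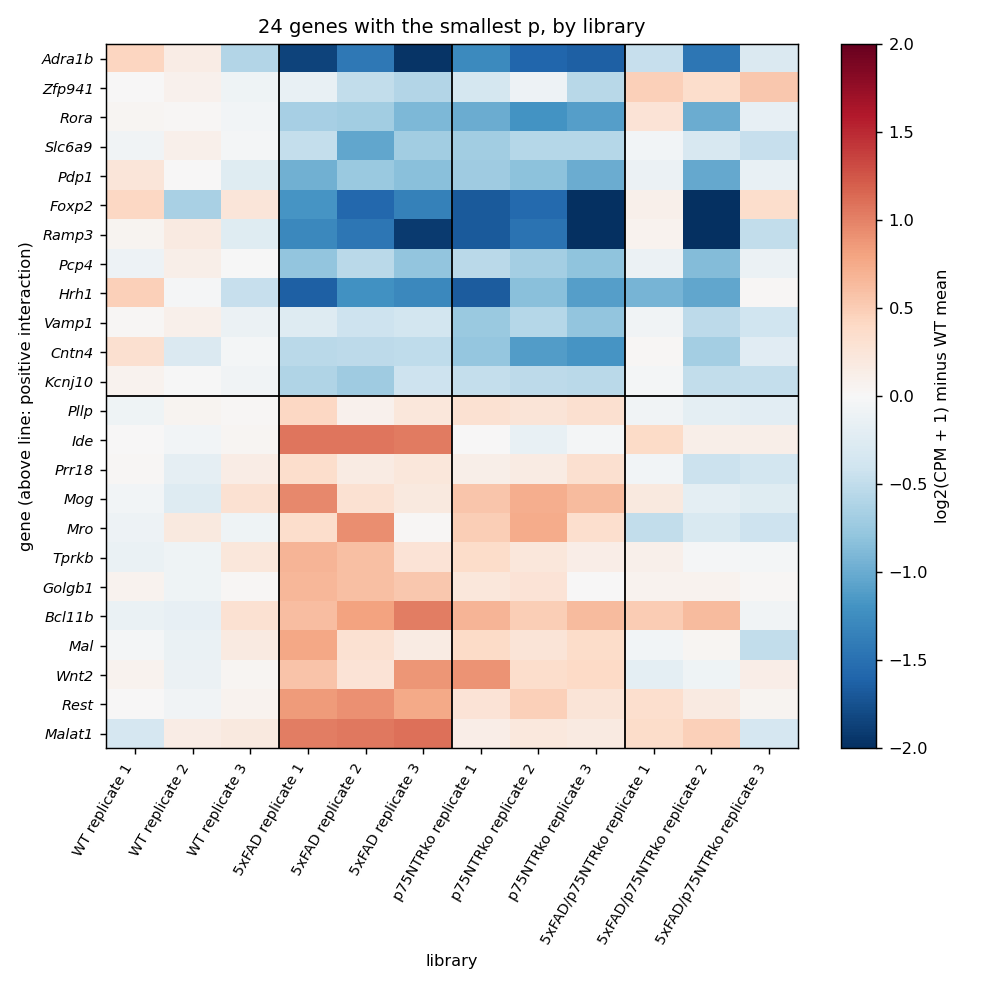
Level of the 24 genes with the smallest p (rows, positive interaction above the line) in each library (columns), as log2(CPM + 1) minus the WT mean, colour scale from -2 to 2. Above the line both single genotypes are mostly blue and double-genotype replicate 2 is close to them, and below the line the 5xFAD columns are mostly red.

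Gene groups were described with 36 lists of functions and of cell type or region markers, by the count of tested autosomal members with an unadjusted p under 0.05 in each direction, to be read against 5.16% positive and 4.15% negative over all autosomal genes. Apart from Adra1b, 0 members passed adjustment in edgeR and 10 in DESeq2. Some genes are in several lists and are counted in each. Rora is in the thalamic and clock lists, Rorb in the cortical and clock lists, and Slc17a6 and Cplx1 in the thalamic and presynaptic lists. Prox1 is in the dentate and neurogenesis lists. The highest shares on the positive side were in thalamus and habenula, circadian clock, presynaptic and adrenergic genes, and on the negative side in myelin, dentate gyrus and CA field, GABA-A receptor and neurogenesis genes. The adrenergic share is 2 of 6 tested, and 1 of the 2 is Adra1b. Lists were chosen with earlier results of these data known, so the shares are a description.

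**Figure D4:**
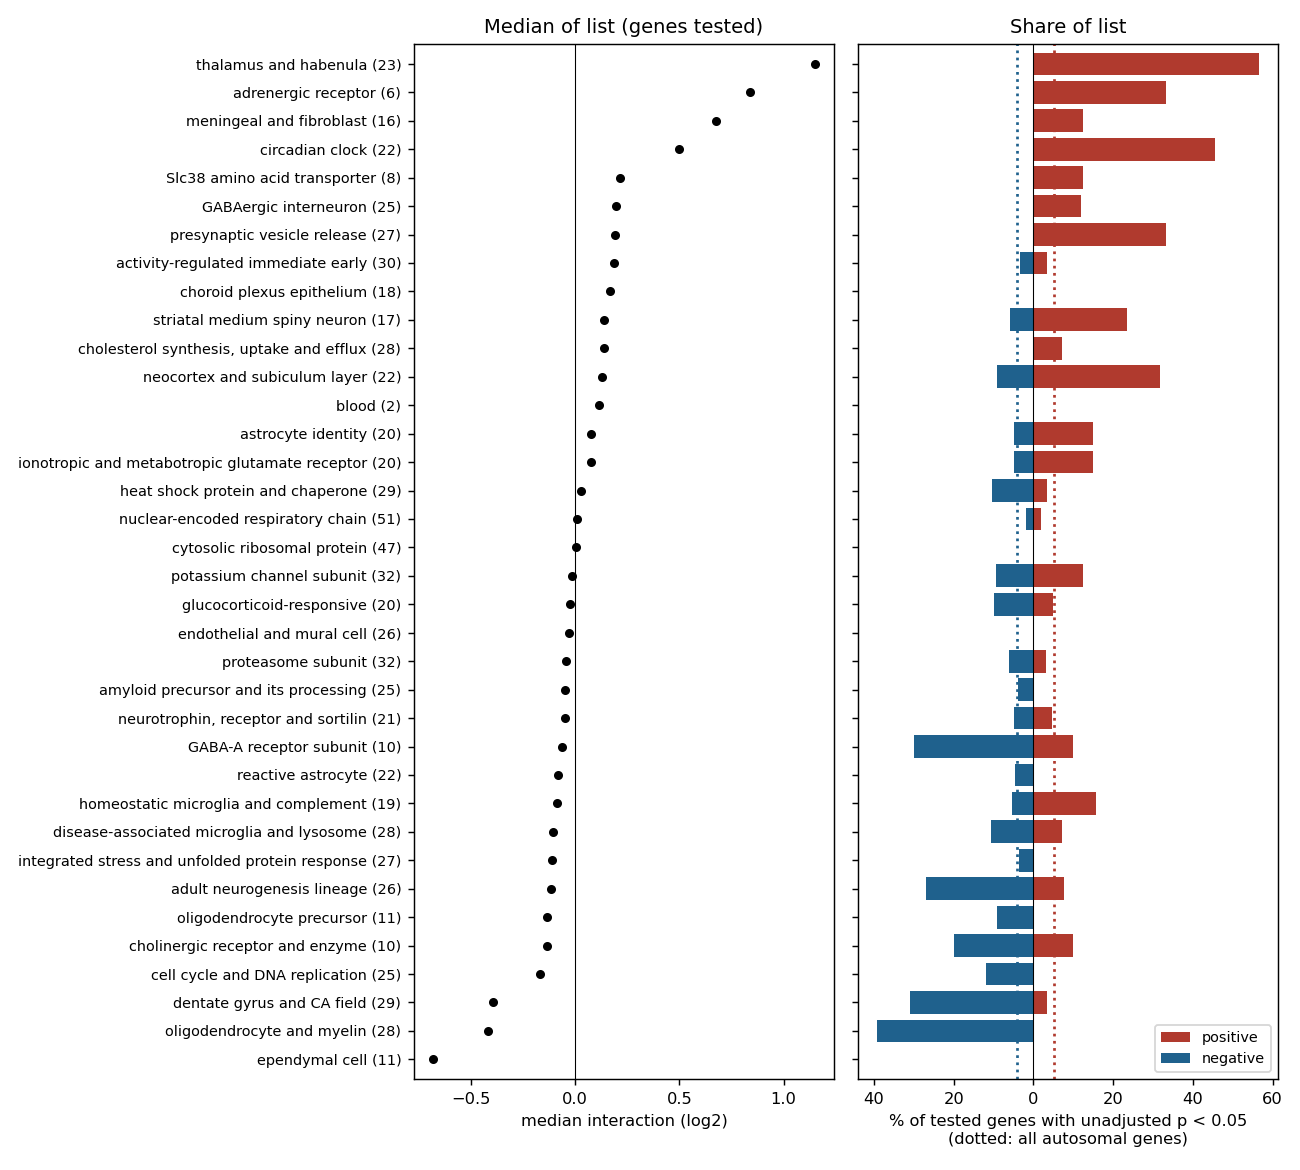
Left, median interaction (x axis, log2) of the tested genes of 36 lists, with the number tested in brackets. Right, percent of those genes with an unadjusted p under 0.05 and a positive (red) or negative (blue) interaction, with dotted lines at 5.16% and 4.15% for all autosomal genes. Lists that lack red and blue bars include choroid plexus, ependymal and ribosomal genes.

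Among thalamus and habenula markers, genes of regions that adjoin the hippocampus, 13 of 23 were positive at an unadjusted p under 0.05 and 0 negative, with a median of 1.15. Examples are Tnnt1 (4.06), Tcf7l2 (2.53), Ramp3 (2.74) and Slc17a6 (1.5), the vesicular glutamate transporter of thalamic neurons. The summed level of the markers was 1341 to 1577 CPM in WT, 888 to 993 CPM in 5xFAD, 870 to 905 CPM in p75NTRko-labelled and 806 to 1744 CPM in double-genotype libraries. WT was above both single genotypes in every library. The double genotype had the highest and the lowest library of all 12, with 10 of 23 markers highest in its replicate 1 and 12 lowest in its replicate 2, and no marker was at 0 in every library of a genotype. Without double-genotype replicate 1 the median was 0.62, with 10 markers positive and 1 negative, and with Xist class as a term it was 1.13 with 2 positive and 0 negative.

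The thalamic level moved with several genes named above, of which Rora and Ramp3 are in the list. With the mean log2 CPM of the markers as a covariate, the interaction of Rora was 0.89 in place of 1.65, that of Ramp3 1.31 in place of 2.74, that of Pdp1 0.93 in place of 1.34 and that of Pcp4 0.63 in place of 1.05. Hrh1 (2.62) and Mog (-1.56) were as far from 0 as without it or farther. All 12 positive genes kept their sign and an unadjusted p under 0.05, and none had an adjusted p under 0.05 in edgeR.

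The clock list holds activators (Arntl, Clock, Npas2), repressors (Per and Cry genes, Ciart, Nr1d1, Nr1d2) and output factors (Dbp, Hlf, Tef). Of 22 tested members, 10 were positive at an unadjusted p under 0.05 and 0 negative, and the median was 0.50. The repressors Ciart (1.40, SE 0.436), Cry1 (1.0, SE 0.270), Nr1d1 (0.96), Per1 (0.72), Cry2 (0.55) and Nr1d2 (0.51) and the output factor Dbp (0.85) were among the 10, with Rora, Rorb and Csnk1e. The activators Arntl (-0.51) and Clock (-0.16) had negative values with unadjusted p of 0.114 and 0.179, and the activator Npas2 a positive one (0.49, unadjusted p 0.0626).

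Ciart was at 23.5, 18.5 and 13.6 CPM in WT, 13.4, 15 and 13.7 CPM in 5xFAD, 5.93, 8.97 and 13.8 CPM in p75NTRko-labelled libraries and 15.3, 13.8 and 28.7 CPM in the double (adjusted p 0.389, edgeR). The groups overlapped, and double-genotype replicate 3 was the highest of all. Cry1 was at 24.8, 21.6 and 20.6 CPM in WT, 13.4, 18.0 and 10.3 CPM in 5xFAD, 14.1, 12.4 and 13.5 CPM in p75NTRko-labelled libraries and 14.0, 16.8 and 19.5 CPM in the double (adjusted p 0.336, edgeR). Its WT libraries were above all others. The mean log2 CPM of the list was highest in WT replicate 1 (6.29) and double-genotype replicate 3 (6.25), and the hour at which animals were taken is not given in the labels. With Xist class as a term the median was 0.36 with 2 members positive and 1 negative, without double-genotype replicate 3 it was 0.31, and with the striatal score as a covariate it was 0.26.

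Promoters of 18 clock genes were found in RefSeq's GRCm38.p6 table and searched on both strands, over the 250 bases before the first start that the table lists for each gene, for the E-box CACGTG bound by the Clock and Arntl proteins, the D-box TTATGNAA bound by Dbp and its relatives, and the ROR element TAGGTCA bound by Rora and Nr1d1. Of these, 5, 2 and 1 held a match, against 6.05%, 3.23% and 2.27% of 27025 promoters of the same length. Below are 3 that belong to members with an unadjusted p under 0.05 and hold a match, Ciart (chr3:95882229-95882478, minus strand), Cry1 (chr10:85185055-85185304, minus strand) and Per1 (chr11:69098699-69098948, plus strand), with E-boxes and, in Per1, the D-box in capitals.
Ciart: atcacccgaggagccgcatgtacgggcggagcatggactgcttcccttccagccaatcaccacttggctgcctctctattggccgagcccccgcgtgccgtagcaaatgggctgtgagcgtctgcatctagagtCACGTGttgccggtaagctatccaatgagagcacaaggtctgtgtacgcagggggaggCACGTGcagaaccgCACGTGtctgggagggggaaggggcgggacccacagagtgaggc
Cry1: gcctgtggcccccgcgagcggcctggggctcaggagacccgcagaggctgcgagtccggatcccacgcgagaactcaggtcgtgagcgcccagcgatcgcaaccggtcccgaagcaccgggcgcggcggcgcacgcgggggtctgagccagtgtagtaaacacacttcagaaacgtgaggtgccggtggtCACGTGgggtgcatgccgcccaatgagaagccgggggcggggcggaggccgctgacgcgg
Per1: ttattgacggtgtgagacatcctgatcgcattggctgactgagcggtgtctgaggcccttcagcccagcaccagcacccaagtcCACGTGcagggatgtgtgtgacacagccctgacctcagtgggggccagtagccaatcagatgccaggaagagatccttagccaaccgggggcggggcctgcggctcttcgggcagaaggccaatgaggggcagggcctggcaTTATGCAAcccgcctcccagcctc
The table lists a start for Per1 within the gene's span, and the Rora and Ciart windows overlap their genes' spans too, so these are not the outermost starts. The other E-box genes, Bhlhe41 (0.42, unadjusted p 0.0632) and Tef (0.24, unadjusted p 0.288), did not pass an unadjusted p of 0.05. Nor did the other D-box gene, Per3 (0.16, unadjusted p 0.432), or the ROR element gene, Nfil3 (0.11, unadjusted p 0.8). The remaining members that did pass it, Rora, Rorb, Nr1d1, Nr1d2, Cry2, Csnk1e and Dbp, hold none of the 3 motifs in this window. A match is a description of letters and not evidence of binding in these samples.

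Presynaptic vesicle release genes had 9 of 27 members positive at an unadjusted p under 0.05 and 0 negative, with a median of 0.19. They include Vamp1 (0.74) and Stx1a (1.28) of the fusion machinery, Rims2 (0.59) and Unc13c (1.27) of the active zone, Cplx1 (0.43), Rab3a (0.39), Sv2a (0.33) and Slc17a6 (1.5). Vamp1 was at 131, 138 and 118 CPM in WT, 107, 96.0 and 99.7 CPM in 5xFAD, 76.6, 86.0 and 74.2 CPM in p75NTRko-labelled libraries and 122, 89.5 and 97.4 CPM in the double. WT was above both single genotypes and the double genotype overlapped WT only in its replicate 1. The abundant vesicle genes Snap25 (0.12), Syt1 (0.08) and Syp (-0.01) had values near 0. With Xist class as a term 1 member kept an unadjusted p under 0.05, with a median of 0.25.

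Adrenergic receptors other than Adra1b included Adrb1 (0.97, SE 0.247, adjusted p 0.331 in edgeR), the beta-1 receptor, at 60.8, 49.7 and 42.5 CPM in WT, 38.9, 42.8 and 37.2 CPM in 5xFAD, 34.1, 32.9 and 34.9 CPM in p75NTRko-labelled libraries and 41.5, 45.6 and 68.5 CPM in the double. Double-genotype replicate 2 lay within the WT range and replicate 3 above every other library. The 4 other tested members, Adrb3 (1.63), Adra2a (0.70), Adra1d (-0.37) and Adra2c (-0.60), had unadjusted p of 0.0649 to 0.164.

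Oligodendrocyte and myelin genes formed the largest group on the negative side, with 11 of 28 at an unadjusted p under 0.05, 0 positive and a median of -0.42, and 26 of 28 values below 0. Besides Mog (-1.26) and Mal (-0.93) they include the structural proteins Cnp (-0.50), Mag (-0.42) and Mobp (-0.58), Opalin (-1.30), Tspan2 (-0.76) and the lineage factor Olig1 (-0.50). Mbp was at -0.42 with an unadjusted p of 0.0919. Mog was at 25.3, 21.9 and 32.7 CPM in WT, 52.1, 32.7 and 30.1 CPM in 5xFAD, 39.1, 44.2 and 41.2 CPM in p75NTRko-labelled libraries and 30.1, 22.8 and 22.1 CPM in the double. The double genotype lay within the WT range, and p75NTRko-labelled libraries lay above WT.

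For myelin genes the form was mixed: in 14 of 28 the double genotype was the one apart from WT and in 8 the single genotypes were. By list mean, double-genotype replicates 2 and 3 were lowest of all libraries (6.20 and 6.08 log2 CPM) and 5xFAD replicate 1 highest (6.78). Of 28 genes, 18 were lowest in double-genotype replicate 3. In bulk tissue, fewer cells of a type and less RNA per cell cannot be told apart. With the thalamic score as a covariate the median was -0.67 with 18 negative, and with Xist class as a term -0.34 with 3 negative. The precursor markers had 1 of 11 negative, Gpr17 (-0.86), and a median of -0.13.

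**Figure D5:**
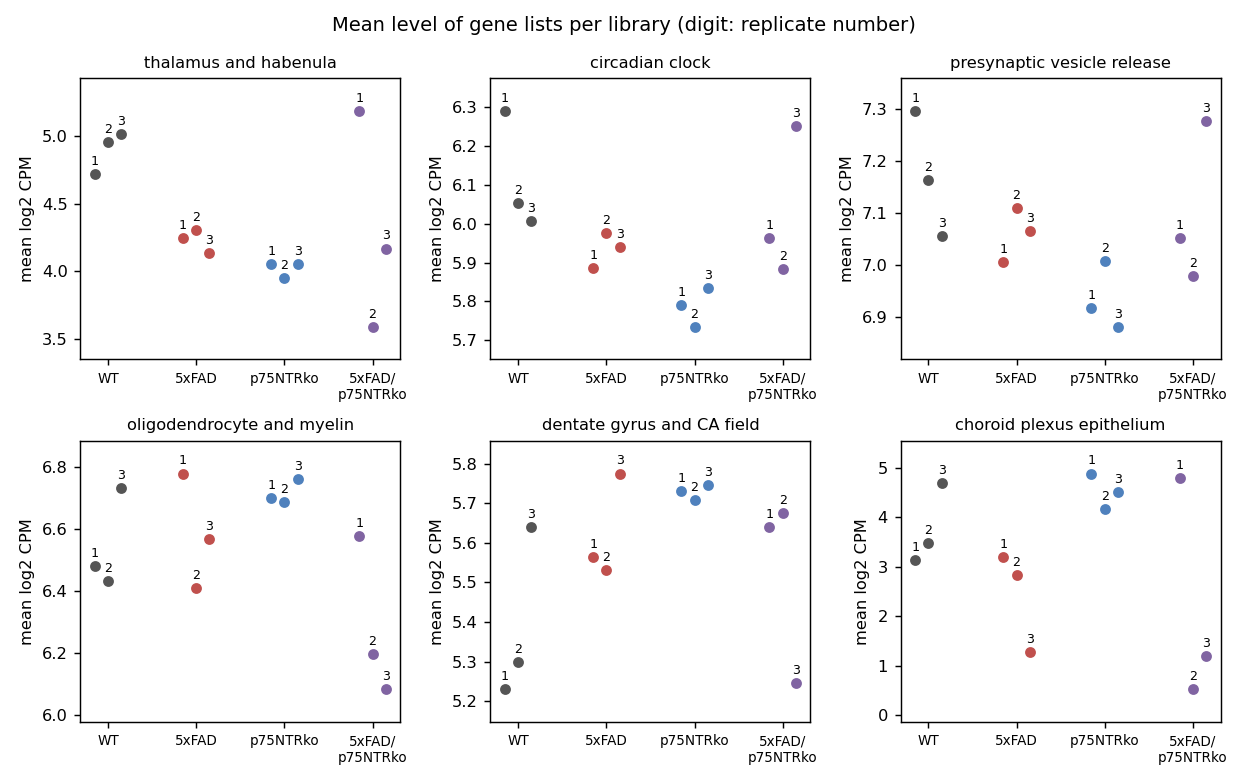
Mean log2 CPM (y axis) of the tested genes of 6 lists in each library, by genotype (x axis), digits giving replicate numbers. The thalamic mean is high in all WT libraries and double-genotype replicate 1, the clock and presynaptic means are high in double-genotype replicate 3, and the myelin mean is low in double-genotype replicates 2 and 3.

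Markers of the dentate gyrus and CA fields, the principal neurons of the hippocampus, had 9 of 29 negative and 1 positive (Calb1, 0.34) at an unadjusted p under 0.05, with a median of -0.39. The negative ones include Neurod6 (-0.92) and Fibcd1 (-0.75) of CA neurons, C1ql2 (-0.90) and Prox1 (-0.99) of granule cells, and Pou3f1 (-0.80). The list mean was 5.23 to 5.64 log2 CPM in WT, 5.53 to 5.78 in 5xFAD, 5.71 to 5.75 in p75NTRko-labelled libraries and 5.25 to 5.67 in the double. It was thus lowest in WT replicates 1 and 2 and double-genotype replicate 3, and no marker was at 0 in every library of a genotype. With Xist class as a term 0 of 29 had an unadjusted p under 0.05 in either direction (median -0.33), and with the striatal score the median was -0.12.

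Adult neurogenesis genes, the process the series was designed around, had 7 of 26 negative and 2 positive, with a median of -0.12. The median was 0.08, with 1 negative and 2 positive, when Xist class was a term. In the fit without that term the negative members were mostly factors also present in mature granule and CA neurons, Bhlhe22 (-0.64), Neurod2 (-0.75), Neurod1 (-0.43) and Prox1 (-0.99), with Lpar1 (-0.61), Thrsp (-0.78) and Hopx (-0.66), which is found in radial glia. The positive members were Hes5 (0.87), a Notch target, and Dcx (0.59), the marker of immature neurons. Of the division genes, 3 of 25 were negative and 0 positive: Top2a (-2.35, SE 0.507), Ccnd1 (-0.54) and Mcm4 (-0.73). Top2a, the topoisomerase of dividing cells, was at 1.79, 3.25 and 3.98 CPM in WT, 5.77, 3.76 and 4.0 CPM in 5xFAD, 8.90, 5.29 and 7.14 CPM in p75NTRko-labelled libraries and 1.67, 3.12 and 1.64 CPM in the double (adjusted p 0.286, edgeR). The double genotype was below every single-genotype library and overlapped WT.

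GABA-A receptor subunits went both ways, Gabrd (1.26), an extrasynaptic subunit, being among the positive and Gabra5 (-0.68) and Gabra2 (-0.50) among the negative of 10 tested. Of the glutamate receptors 3 of 20 were positive, Grm4 (1.60), Gria4 (0.80) and Grm8 (0.89), and Gria1 (-0.54) was negative. Interneuron genes had 3 of 25 positive and 0 negative, among them the vesicular GABA transporter Slc32a1 (0.51) and the channel Kcnc2 (0.41). Cortical layer markers had 7 of 22 positive and 2 negative, and striatal markers 4 of 17 and 1. Under the Xist class term the members at an unadjusted p under 0.05 were 1 positive and 0 negative among GABA-A receptor, interneuron and cortical genes, 0 in either direction among glutamate receptors, and 0 positive and 1 negative among striatal markers. The transporter Slc38a2 (0.61, SE 0.154, adjusted p 0.331 in edgeR) was the 1 member of 8 in its list, with WT above every library of the other 3 genotypes.

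Glial and amyloid genes were also read. Disease-associated microglia genes had 2 of 28 positive, Spp1 among them (1.22), and 3 negative (17.9% in either direction). Homeostatic microglia genes had 3 of 19 positive and 1 negative (21.1%). The medians were -0.10 and -0.09. The homeostatic members include Sall1 (0.60) and Mef2c (1.68) on the positive side, and the negative one is Olfml3 (-1.47). Mef2c was at 938, 635 and 898 CPM in WT replicates 1 and 2 and double-genotype replicate 3, and at 221 to 443 CPM elsewhere. The homeostatic list summed to 992 to 1763 CPM, so this gene makes up much of it. Over all autosomal genes, 1169 of 12569 had an unadjusted p under 0.05 in either direction in edgeR. Reactive astrocyte genes had 0 of 22 positive and 1 negative (Osmr, -1.07). Genes of amyloid precursor processing had 0 of 25 positive and 1 negative, Ide, and neurotrophins, their receptors and sortilins 1 of 21 positive (Sorcs1, 1.10) and 1 negative (Ntrk3, -0.27). Ngfr itself was at 0.23 (SE 0.724) and Thy1 at 0.09 (SE 0.417), so both label checks were near their additive level with wide errors. Ribosomal protein genes had 0 of 47 in either direction with a median of 0.00, and respiratory chain genes 1 of 51 in each.

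Markers of other cell types that dissection can add were also read. Choroid plexus (18 tested), ependymal (11), endothelial and mural (26) and blood genes (2) had 0 members at an unadjusted p under 0.05 in the fit without covariates. With the thalamic score as a covariate, the 2 genes that passed adjustment, Tmem72 (-8.88) and Slc4a5 (-7.18), were choroid plexus genes. The choroid plexus list spread widely within genotypes, from 79.7 to 6459 CPM in sum in the double genotype, and its median was 0.17. All 11 ependymal genes had a negative value, with a median of -0.68, and their mean was lowest in double-genotype replicates 2 and 3 (1.33 and 0.80 log2 CPM). Meningeal and fibroblast genes had 2 of 16 positive, Slc22a6 (2.24) and Ptgds (1.43), and a median of 0.68.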

How the data were processed

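Total RNA of 12 hippocampal samples was made into QuantSeq 3′ libraries, per the labels' protocols. The deposited table holds raw counts per gene symbol, with no normalization recorded. The submitters' processing notes name HISAT2, SAMtools, HTSeq, edgeR and mm10, without versions or roles. The annotation and use of strand are not given in the sources used here, so overlapping or antisense genes and near-identical copies are uncertain. Gene-assigned counts were 4316739 to 6683613 per library (32.2% to 38.5% of the table's reads), and 3 counts equal 0.446 to 0.690 CPM. The 5 summary lines were left out.

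Counts were fitted in edgeR 4.0.16 (R 4.3.3, filterByExpr, TMM, quasi-likelihood F test) with 4 genotype means over all 12 libraries. Benjamini-Hochberg adjustment ran over 13065 genes. CPM use TMM-scaled library sizes. Positions came from RefSeq GRCm38.p6 by symbol, or failing that from a GENCODE gene name or a RefSeq synonym. By these routes 99.8% of tested genes had a position. Alternatives used DESeq2 1.42.0 and limma 3.58.1. The fit was tested on simulated data. Named genes were those past adjustment, the 12 smallest p-values in each direction at a mean of at least 5 CPM, up to 3 members of each list with an unadjusted p under 0.05, Ngfr and Thy1; other list members and values shown by library were picked after their values were seen. Members and lists were chosen with earlier results of these data known. Replicate numbers did not pair libraries: 1 of 18 same-numbered pairs correlated above 0.1 (r from -0.43 to 0.14). No 2 libraries of a genotype agreed within sampling noise. Some members counted in the lists are not reported here by name.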

Additional observations from a re-analysis of the deposited data

Results flagged for a closer look

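Adra1b was singled out because the effect of the p75NTRko label differed between mice with and without the transgenes by a test of that difference. Its interaction was 2.73 on the log2 scale (SE 0.420, adjusted p 0.0307 in edgeR, 0.139 with autosomal genes alone). The label went with 17.0 to 22.1 CPM against 35.8 to 74.1 CPM without the transgenes, and with 19.3 to 44.4 CPM against 13.3 to 19.5 CPM with them. The direction held in all 24 alternatives. These refit the same counts of a gene chosen by its p, so a kept sign is a description and adds no support. The adjusted p stayed under 0.05 in 7 of the 23 on the log2 scale, and not on the linear scale. Among those that lost it were the replicate block (2.7), the filter at a mean of 50 counts (2.71) and the striatal covariate (2.14). Xist class, and with it the sex read from Xist and Y-linked levels, moved with the contrast in 11 of 12 libraries.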

How the results depend on the processing

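The count of autosomal genes past adjustment, 1, became 20 with DESeq2, 9 with no filter on low counts, 0 with a mean of at least 50 counts, 0 with autosomal genes alone, 0 with the replicate number as a block, 0 on the linear CPM scale, and 2, 11 and 0 with the thalamic, choroid plexus and striatal score as a covariate. With Xist class as a term it was 1, Wdfy1 in place of Adra1b. Leaving out single libraries gave 0 to 16, the highest without 5xFAD/p75NTRko replicate 2. The count at an unadjusted p under 0.05, 1169, became 503 with Xist class as a term, 662 with the striatal covariate, 1004 with the replicate block, and 752 (without 5xFAD/p75NTRko replicate 3) to 1964 (without WT replicate 3) over single libraries. An alternative chosen after seeing the data left out WT replicate 3 and 5xFAD/p75NTRko replicate 1, the libraries of their genotypes with the highest thalamic score, and gave 34 and 2278. The 34 include the choroid plexus genes Sostdc1, Otx2, Lbp and Kcne2. The causes were not tested. The block assumes a pairing that the libraries did not show, as 2 of 12 correlated best with their own number.

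Signs of single genes seldom reversed, though most of these genes were chosen by their p in the same counts, so this is a description. With Xist class as a term Spp1 was -0.16, Fgfr3 -0.01, Nr3c2 0.18, Psmc4 -0.06 and Ngfr -0.17. Ngfr was -0.02 with the choroid plexus covariate and -0.62 to 0.71 over single libraries (0.91 in the added alternative). Its counts were too low for the filter at a mean of 50 counts, so it has no value there. Thy1 was -0.11 with the choroid plexus and -0.02 with the striatal covariate, -103 CPM on the linear scale and -0.23 to 0.36 over single libraries (0.42 in the added alternative). List medians have no linear-scale value. Below 7.30 mean CPM the median standard error was 0.527, so depth limits what can be called there, and Xist class limits every autosomal result.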
